A study of Mus musculus with 8 samples.

Results

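The choroid plexus is a vascular fold of tissue inside the brain ventricles that lies directly against the hippocampus. Its epithelium makes most of the cerebrospinal fluid by moving ions and water from blood to ventricle, and it secretes carrier proteins, hormones and growth factor antagonists into that fluid. It is also a barrier between blood and fluid, and the thyroid hormone carrier transthyretin is its best known product. This account follows 10 genes known for their expression in that epithelium: Ttr, Kl, Folr1, Clic6, Aqp1, Sostdc1, Kcne2, F5, Steap1 and Otx2. They were chosen with earlier results of these data known. They also share their tissue, so counts among them set beside shares of all genes are descriptions and no test. Each was matched by its symbol to 1 probe set, and all 10 were found among the 19505 genes named on the array.

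The study asked how hippocampal expression differs between Alzheimer model mice that did and did not lose their memory. All 8 mice carried the same mutant amyloid precursor protein transgene (B6.Cg-Tg(APPswe)E1-2Dbo/J in the labels) and were 18 to 20 months old. Each had been through the Morris water maze, in which a mouse learns where a hidden platform lies, before the hippocampus was dissected. By the labels memory was impaired in 4 mice and intact in 4, and each mouse gave 1 array. There was no group without the transgene, and neither the promoter that drives it nor the sex of the mice was given in the sources used here. Values are log2 intensities summarized by RMA, a robust multi-array average, so that 1 unit is a doubling. The number of mice limits the precision.

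The 10 genes varied more between single mice than between the groups. In impaired mouse 3 and intact mouse 3 every one of the 10 lay below its own median over the 8 mice, as it also did in impaired mouse 2. For 8 of the 10 the mice numbered 3 were the lowest pair, an ordering found for 4.06% of the 14628 genes tested. Intact mouse 1 had the highest value of 7 of the 10 genes, as it did for 11.9% of all genes tested. Averaged over the 10 genes, the log2 deviation from a gene's own mean came to -1.07 for impaired mouse 3 and to -1.06 for intact mouse 3. It was 0.15, -0.40 and 0.27 in impaired mice 1, 2 and 4, and 1.02, 0.60 and 0.49 in intact mice 1, 2 and 4. Leaving the mice numbered 3 aside, the intact mice were therefore the 3 highest, and impaired mouse 2 was the lowest. Setting those mice aside was a choice made from these same values. In bulk tissue, fewer epithelial cells in the sample and less RNA per epithelial cell cannot be told apart. The arrays' negative control probe sets had a 75th percentile of 6.36, and values below it were taken as not above background. By that measure Steap1 and Kcne2 were not above background on 6 of the 8 arrays, F5 on 3, Folr1 on 2 and Otx2 and Aqp1 on 1 each, and these arrays included intact mouse 3 for all 6 genes. Ttr, Kl, Clic6 and Sostdc1 were above it in all 8 mice. The 95th percentile of the negative controls was 7.98, and of the 10 genes only Ttr was above that in all 8 mice.

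**Figure D1:**
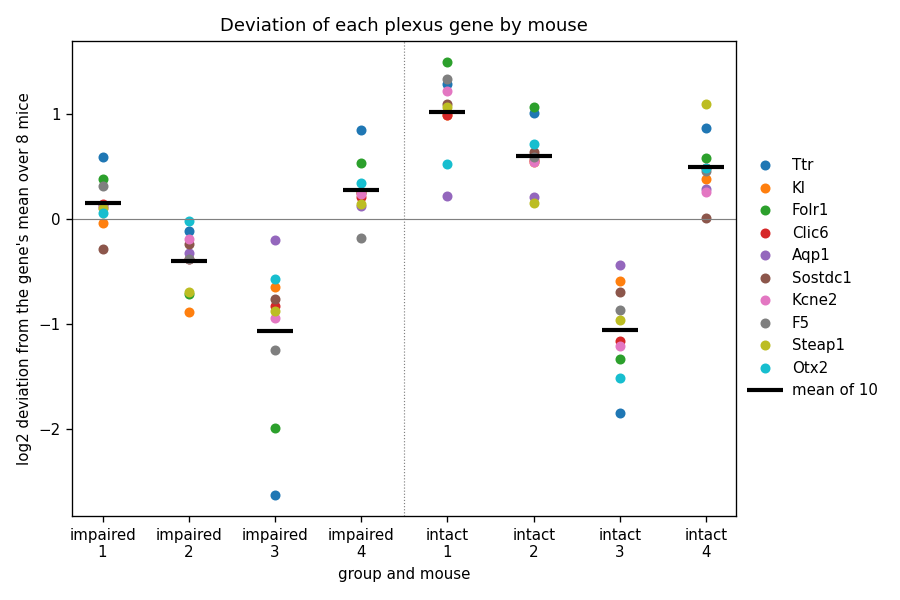
Log2 deviation of each of the 10 genes from its own mean over the 8 mice (vertical axis) in each mouse (horizontal axis, impaired on the left and intact on the right). Coloured points are genes and black bars the mean of the 10, which lay at -1.07 and -1.06 in the mice numbered 3 and at 1.02 in intact mouse 1.

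Every gene had a lower mean in the impaired group, against 52.9% of all genes tested, but none of the differences passed the test. The median log2 difference of the 10, impaired minus intact, was -0.59, beside -0.0083 over all genes tested, and 6 of the 10 had a difference of -0.5 or lower, as 0.198% of all genes did. The impaired and intact values overlapped for all 10, while 1.46% of all genes did not overlap and were lower. Where genes are described below apart from a mouse numbered 3, that mouse was set aside after its values were seen. In limma's moderated test 0 of the 10 passed an adjusted p of 0.05, with adjusted p from 0.961 to 0.993 and unadjusted p from 0.067 to 0.82. Over all genes 0.00% passed, and 685 genes, or 4.68%, had an unadjusted p under 0.05. An exact two-sided permutation test over the 70 splits of the 8 mice gave p from 0.143 to 0.914 for the 10 genes, where 0.0286 is the smallest possible. Over the 8 mice 9 of the 10 spanned at least 1 unit, as 3.52% of all genes did, and the median standard error was 0.42 for the 10 genes and 0.10 for all genes.

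The secreted proteins come first. Ttr encodes transthyretin, which carries thyroxine and the retinol-binding protein and also binds amyloid-beta. Its log2 expression was 12.999, 12.30, 9.79 and 13.25 in impaired mice 1 to 4 and 13.69, 13.41, 10.56 and 13.28 in intact mice 1 to 4. The mice numbered 3 thus stood far below the other 6, whose values spanned 1.40 units, and among those 6 the intact mice were the 3 highest. The range over the 8 mice, 3.90 log2 units or 14.96-fold, was the widest of all genes tested. The group means were 12.08 ± 1.58 (SD, n = 4) in the impaired and 12.74 ± 1.46 (SD, n = 4) in the intact mice. The difference of -0.65 (standard error 0.81) had a 95% interval from -2.44 to 1.13 (limma, adjusted p = 0.964). Without impaired mouse 3 it was 0.11, and without intact mouse 3 it was -1.38, so that 1 mouse decided its direction.

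Kl encodes klotho, a membrane protein that is shed into the cerebrospinal fluid and serves as co-receptor for FGF23. Its log2 expression was 8.20, 7.36, 7.60 and 8.50 in the impaired mice and 9.23, 8.79, 7.66 and 8.62 in the intact mice. Unlike the 8 genes that were lowest in the mice numbered 3, Kl was lowest in impaired mouse 2. Apart from intact mouse 3, each intact value was above every impaired value. The means were 7.91 ± 0.53 (SD, n = 4) and 8.57 ± 0.66 (SD, n = 4), a difference of -0.66 (standard error 0.32), or 1.58-fold, with a 95% interval from -1.38 to 0.055 (limma, adjusted p = 0.961). Kl had the smallest unadjusted p of the 10, 0.067, and the smallest exact permutation p, 0.143. Without intact mouse 3 the difference was -0.97, and without intact mouse 1 it was -0.44.

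Sostdc1 encodes a secreted antagonist of bone morphogenetic proteins and Wnt ligands. It stood at 7.37, 7.41, 6.89 and 7.90 in the impaired and at 8.74, 8.29, 6.96 and 7.66 in the intact mice. Intact mice 1 and 2 lay above all others, while intact mouse 4 lay below impaired mouse 4. The difference was -0.52 (standard error 0.33, limma, adjusted p = 0.961), and it was -0.84 without intact mouse 3 and -0.25 without intact mouse 1.

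F5 encodes coagulation factor V, the cofactor of factor Xa. Its values were 6.99, 6.29, 5.43 and 6.49 in the impaired mice and 8.01, 7.27, 5.81 and 7.13 in the intact mice. Here too intact mouse 3 alone among the intact mice fell within the impaired values. The difference of -0.75 (standard error 0.42) was second in size among the 10 (limma, adjusted p = 0.961). F5 was not above background on 3 arrays, so that this difference is no exact fold. Without intact mouse 3 the difference was -1.17, and without intact mouse 1 it was -0.43.

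**Figure D2:**
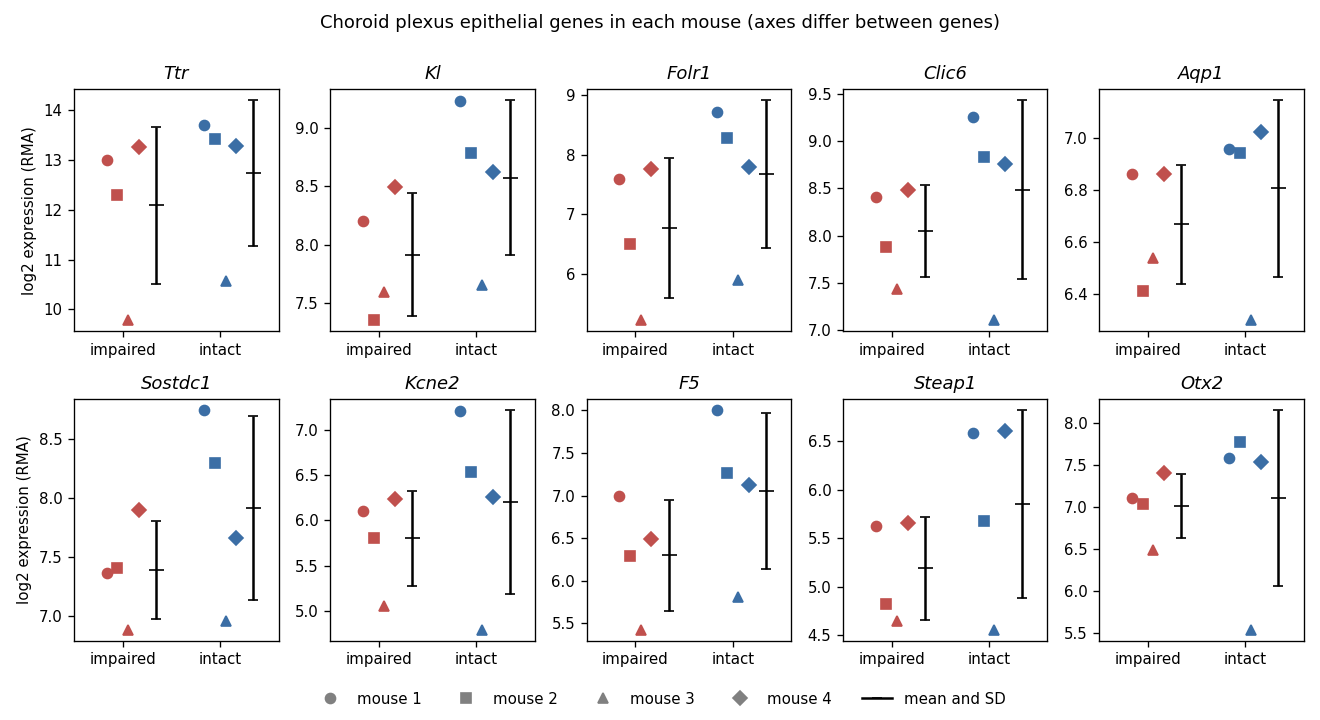
Log2 expression (vertical axes, which differ between panels) of each gene in the 4 impaired mice (red) and the 4 intact mice (blue); the symbol gives the number of the mouse, and black bars are the group mean and SD. In 8 of the 10 panels the triangles of the mice numbered 3 are the 2 lowest points, as for Ttr at 9.79 and 10.56.

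Among the receptors and reductases, Folr1 showed the widest spread. It encodes folate receptor alpha, through which the plexus passes folate into the cerebrospinal fluid. Its log2 values were 7.60, 6.51, 5.23 and 7.75 in the impaired and 8.71, 8.28, 5.89 and 7.80 in the intact mice. Both mice numbered 3 were at the bottom, and the 3 other intact mice were above every impaired mouse, although intact mouse 4 exceeded impaired mouse 4 only narrowly. The values spanned 3.48 log2 units, but in both mice numbered 3 they were not above background. Neither the span nor the difference between the groups is therefore an exact fold. The means of 6.77 ± 1.17 (SD, n = 4) and 7.67 ± 1.24 (SD, n = 4) gave the largest difference of the 10, -0.90 with a standard error of 0.64 (95% interval -2.31 to 0.52, limma, adjusted p = 0.961). Without intact mouse 3 it was -1.49, and without impaired mouse 3 it was -0.38.

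Steap1 encodes a member of a family of membrane metalloreductases. It stood at 5.62, 4.82, 4.64 and 5.66 in the impaired and at 6.58, 5.67, 4.56 and 6.61 in the intact mice. Intact mice 1 and 4 lay almost 1 unit above the next mouse, and intact mouse 3 was the lowest of the 8. Steap1 was dim: on 6 of the 8 arrays it was below 6.36, the 75th percentile of the negative controls, so that its differences lie close to background. The difference was -0.67 (standard error 0.42, limma, adjusted p = 0.961), in a range from -1.10 without intact mouse 3 to -0.42 without intact mouse 4.

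The channel genes move ions and water for fluid secretion. Aqp1 encodes the water channel of the epithelium's ventricular face. Its log2 expression was 6.86, 6.41, 6.54 and 6.86 in the impaired mice and 6.96, 6.94, 6.30 and 7.02 in the intact mice. It varied least of the 10, by 0.72 units or 1.65-fold, a range exceeded by 2162 of the genes tested, and its lowest mice were intact mouse 3 and impaired mouse 2. The difference was -0.14 (standard error 0.17, limma, adjusted p = 0.964), running from -0.31 without intact mouse 3 to -0.052 without impaired mouse 2.

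Kcne2 encodes a potassium channel beta subunit that pairs with Kcnq1 and other pore subunits in this epithelium. Its values were 6.10, 5.81, 5.06 and 6.24 in the impaired and 7.21, 6.54, 4.80 and 6.26 in the intact mice. Only intact mice 1 and 2 exceeded the 75th percentile of the negative controls, so this gene also lay near background. The difference of -0.40 (standard error 0.43, limma, adjusted p = 0.961) shrank to -0.064 without intact mouse 1 and grew to -0.87 without intact mouse 3.

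Clic6, a chloride intracellular channel family member, was the gene whose pattern lay nearest to the average of the other 9, with a mean absolute distance of 0.069 log2 units over the 8 mice. It stood at 8.41, 7.88, 7.44 and 8.48 in the impaired and at 9.26, 8.83, 7.11 and 8.75 in the intact mice. Apart from intact mouse 3, which was the lowest of all, each intact mouse was above every impaired mouse. The difference was -0.44 (standard error 0.40, limma, adjusted p = 0.961), and it was -0.90 without intact mouse 3 and -0.18 without intact mouse 1.

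Otx2, the only transcription factor among the 10, is a homeodomain protein needed for the formation and upkeep of the plexus. Its log2 values were 7.11, 7.04, 6.49 and 7.40 in the impaired and 7.58, 7.77, 5.55 and 7.54 in the intact mice. Its level in intact mouse 3 was the lowest by almost 1 unit, and impaired mouse 3 was next. The difference of -0.098 (standard error 0.42) was the smallest of the 10 and had a 95% interval from -1.03 to 0.83 (limma, adjusted p = 0.993). It was 0.12 without intact mouse 2 and -0.62 without intact mouse 3, so that its direction was not settled.

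How far the genes fell in the mice numbered 3 is given as a fold where both sides were above the 75th percentile of the negative controls. In both mice numbered 3 Clic6, Sostdc1 and Kl lay below the 95th percentile of 7.98. Their folds are therefore less certain than that of Ttr. Against the mean of the other 3 impaired mice, impaired mouse 3 was lower by 8.35-fold for Ttr, 1.76-fold for Clic6, 1.59-fold for Sostdc1 and 1.34-fold for Kl. Against the other 3 intact mice, intact mouse 3 was lower by 7.46-fold for Ttr, 3.58-fold for Clic6, 2.42-fold for Sostdc1 and 2.34-fold for Kl. Of these 4 genes, 3 fell further in intact mouse 3, and Ttr was the exception. Where mouse 3 was not above background, the 75th percentile of the negative controls was put in its place and gives only a bound. Folr1 was at least 1.90-fold lower in impaired mouse 3 and at least 3.74-fold lower in intact mouse 3. In intact mouse 3 Otx2 was at least 2.42-fold and F5 at least 2.16-fold lower. Aqp1 was 1.13-fold lower in impaired mouse 3 and at least 1.53-fold lower in intact mouse 3. Genes near background cannot be ranked by how far they fell. Scaled to the average of the other 9 genes, 1 unit of change went with 1.91 units for Ttr, 0.94 for Clic6, 0.75 for Kl and 0.73 for Sostdc1. These slopes describe 8 points that rest largely on the 2 low mice.

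The groups were also compared without the mice numbered 3, in which the 10 genes were on average lowest, a choice made after their values had been seen. Impaired mouse 3 did not stand apart from the other impaired mice by Dixon's test for any of the 10 genes, and Kl and Aqp1 were lower in impaired mouse 2. With 3 mice left in each group, all 10 genes again had lower means in the impaired mice, with a median difference of -0.68. Over all genes tested the median was -0.0055, and 51.9% had a lower mean. The impaired values then lay entirely below the intact values for 9 of the 10 genes, all but Sostdc1, while 4.87% of all genes did so. The largest differences were -0.98 (standard error 0.32) for Folr1, -0.92 (standard error 0.29) for Steap1, -0.87 (standard error 0.24) for F5 and -0.86 (standard error 0.27) for Kl. That of Ttr was -0.61, with a standard error of 0.22 in place of 0.81. Steap1 was not above background in impaired mice 1, 2 and 4 and in intact mouse 2, nor was F5 in impaired mouse 2. The places of Steap1 and F5 in this order are therefore not exact. An unadjusted p under 0.05 was reached by 9 of the 10, all but Aqp1, and by 2.60% of all genes in this direction. Leaving out intact mouse 3 alone also gave 9 of the 10 (2.85% of all genes), while leaving out impaired mouse 3 alone gave 0 of the 10 (1.85% of all genes), as the full set of mice did, so that the count rests on intact mouse 3. After adjustment over all genes 0 of the 10 passed (limma, adjusted p = 0.975 for each, in a range of 0.735 to 1.00 for the 10 over all settings), as did 0.00% of all genes. Leaving out 1 mouse from each group by its plexus values fixes part of this result, and 4 against 4 mice remains the comparison the labels give.

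**Figure D3:**
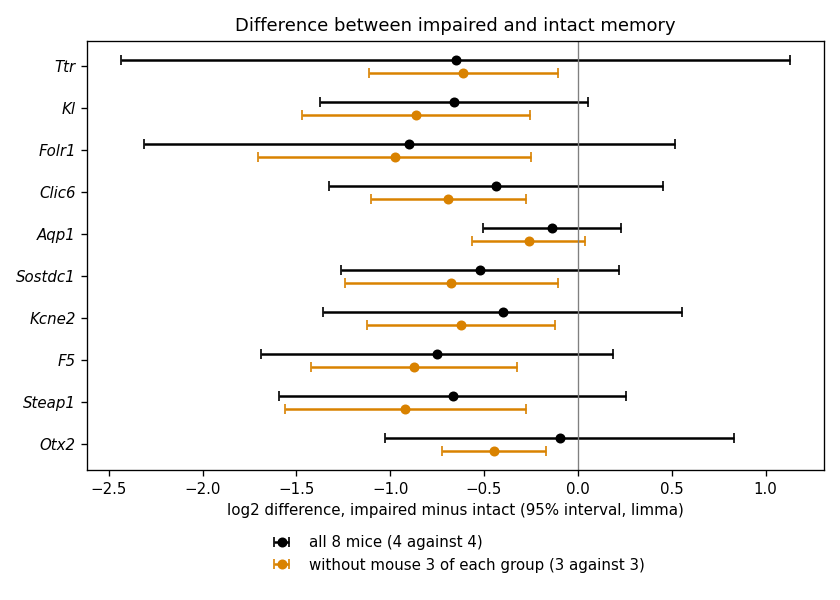
Log2 difference between impaired and intact mice for each gene (points) with its 95% interval from limma (bars), with all 8 mice in black and without mouse 3 of each group in orange. With all mice every interval includes 0; without them, a setting chosen from the values, the interval of Aqp1 alone does.

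The promoters of these genes differed in how many CpG dinucleotides they held. RefSeq promoter windows, each running from 250 bases before to 50 after a gene's start on assembly GRCm38.p6, were read for 6 of the 10 genes. These were F5, Steap1, Kl, Aqp1, Otx2 and Kcne2. Windows of the 10 genes on 1 chromosome were left out, so a gene not named here may still have a window. The figures for all windows did not leave that chromosome out. The 250 bases before the start held 24 CpG dinucleotides for Steap1, 13 for Kl and 4 for F5, where the median of all 32851 windows was 6. Aqp1 had 5, the 4 windows of Otx2 had 6 to 14, and the 2 windows of Kcne2 had 9 and 1. Steap1, Kl and F5 are shown as examples with many, more than the median and fewer than the median. Steap1 lies at chr5:5749318-5749567 (minus strand), Kl at chr5:150952357-150952606 (plus strand) and F5 at chr1:164151585-164151834 (plus strand), and capitals mark each CpG.
Steap1: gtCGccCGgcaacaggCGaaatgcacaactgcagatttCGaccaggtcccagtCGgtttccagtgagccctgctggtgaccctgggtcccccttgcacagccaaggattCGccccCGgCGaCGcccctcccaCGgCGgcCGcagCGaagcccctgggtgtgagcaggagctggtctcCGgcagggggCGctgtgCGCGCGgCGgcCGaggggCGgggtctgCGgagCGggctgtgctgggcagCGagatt
Kl: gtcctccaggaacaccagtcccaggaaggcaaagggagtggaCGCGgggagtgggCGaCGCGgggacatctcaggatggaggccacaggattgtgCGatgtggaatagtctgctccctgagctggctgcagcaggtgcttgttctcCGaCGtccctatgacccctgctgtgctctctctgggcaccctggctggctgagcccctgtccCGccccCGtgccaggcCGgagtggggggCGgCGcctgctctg
F5: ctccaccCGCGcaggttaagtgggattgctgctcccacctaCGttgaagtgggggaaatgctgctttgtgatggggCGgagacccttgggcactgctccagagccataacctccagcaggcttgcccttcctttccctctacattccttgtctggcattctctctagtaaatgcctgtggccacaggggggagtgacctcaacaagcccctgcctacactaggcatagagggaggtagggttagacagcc

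OTX2 binds the letters TAATCC, read as GGATTA on the opposite strand. This motif, searched on both strands, was in 7.06% of all promoter windows. Of the 10 windows of these 6 genes 1 held it, an alternative start of Otx2 itself. It began 211 bases before that start, within chr14:48665303-48665332 (minus strand), where capitals mark the motif.
Otx2: cgtgtgcccctcGGATTAtctcgttagttt
A match to 6 letters is a description of the sequence and does not show binding.

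Other genes known from the plexus epithelium were read in the same mice, where they ranged less widely, over a median of 0.92 units against 2.19 for the 10. Over all genes tested the median range was 0.45. Of the genes on this list that were tested, 7 were not above background on any array. Of 40 listed genes 36 were on the array under that symbol and 30 passed the filter on dim genes. Of those 30, 29 had a lower mean in the impaired group, against 52.9% of all genes tested. Their median difference was -0.18, and 0 passed (limma, smallest adjusted p = 0.961). Leaving out 1 mouse at a time, 23 to 29 of the 30 were lower, with a median from -0.29 to -0.076. For 12 of the 30 the mice numbered 3 were the 2 lowest (4.06% of all genes tested), and in 18 intact mouse 1 was the highest (11.9%). This list too was chosen with earlier results known, so its counts are descriptions. Over all genes tested, 10 lay within 0.25 units of the mean pattern of the 10 genes, which 6 of the 10 themselves helped to set, and the other 4 were all on this list. They were the angiotensin-converting enzyme gene Ace (distance 0.16), Ecrg4, which encodes a secreted peptide precursor (0.17), the potassium channel Kcnj13 (0.18) and the sulfatase Sulf1 (0.22), and apart from Ace they were picked after their values were seen. The limit of 0.25 shuts out other genes only narrowly. Drc7 and Cfap126, which are on neither list, lay at 0.253 and 0.259, nearer than Otx2 of the 10 at 0.264.

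Kcnj13, which sits beside the sodium pump in the ventricular membrane, was 9.74, 8.81, 7.82 and 9.71 in the impaired mice. In the intact mice it was 10.48, 10.15, 8.15 and 9.76. Its difference of -0.61 (standard error 0.52, limma, adjusted p = 0.961) was the largest of the list. Ace was 7.55, 7.04, 6.65 and 7.82 in the impaired and 8.47, 7.82, 6.78 and 7.79 in the intact mice. The order of mice for both genes was close to that of Clic6, with the mice numbered 3 at the bottom and intact mouse 1 at the top.

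The 3 genes of the list with the smallest p did not follow that order. Krt8, an epithelial keratin, differed by -0.44 (standard error 0.15), the retinoid transporter Abca4 by -0.32 (standard error 0.12) and the homeodomain factor Msx1 by -0.16 (standard error 0.080), each with an adjusted p of 0.961 in limma. For none of these 3 were the mice numbered 3 the lowest pair, and Msx1 was highest in intact mouse 3. Cab39l, the fourth by p, did follow it, with the mice numbered 3 lowest and intact mouse 1 highest, and differed by -0.27. Trpv4, Igfbp2 and Col8a1, also named for their small p, differed by -0.22, -0.21 and 0.15. Krt8, Trpv4 and Col8a1 were not above background on any array.

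Outside both lists, the genes nearest to the mean pattern were Drc7, a subunit of the dynein regulatory complex of cilia (distance 0.253), Cfap126, a ciliary basal body protein (0.259), and the sugar transporter Slc2a12 (0.283). They were followed by Cox6b2, Zfp966, Ubxn10, Slc39a4, Ceacam1, Penk and Rab17, up to a distance of 0.40, where the median of all genes was 0.64. In 3 of these 10 the mice numbered 3 were the lowest pair. Drc7, Slc2a12, Ubxn10 and Slc39a4 were not above background on most of the arrays. Cfap126 stood at 7.34, 7.03, 6.72 and 7.70 in the impaired mice and at 7.61, 7.65, 6.50 and 7.77 in the intact mice. Likeness of pattern over 8 mice was measured here, and nothing else about these genes. The distance depends on the size of the deviations as well as on the order of the mice. Ttr itself, with its wide range, lay at 0.59, Aqp1 at 0.39 and Folr1 at 0.38. A smaller distance therefore does not make a gene more typical of the plexus.

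Partners of the plexus proteins were listed as well. Of 9 tested genes that handle thyroid hormone and retinol with transthyretin, none had the mice numbered 3 as the lowest pair, nor did any of 9 genes of the klotho and FGF receptor axis, and their median differences were -0.11 and -0.050. The folate list had 8 of 9 genes with a higher mean in the impaired group, led by Tyms, thymidylate synthase (0.32), and Mthfd2, a mitochondrial folate enzyme (0.28), against -0.90 for Folr1. Without impaired mouse 3, or without impaired mouse 4, 5 of the 9 were higher. Among coagulation factors F8, the cofactor of factor IXa, differed by 0.57 (standard error 0.16), opposite in sign to F5, and the heparin cofactor gene Serpind1 by 0.34. Clic3 differed by -0.35 (standard error 0.11), the metalloreductase Steap4 by 0.32 and Lrp4, a receptor that binds Sostdc1, by 0.31 (standard error 0.10). F8, Clic3 and Steap4 were not above background on any array. None of these passed (limma, adjusted p = 0.961 for each). The other named genes, Lrp2, Stra6, Adam10, Adam17, Grem1, Aqp9, Kcnq5, Tfrc, Clic1, Gsc and Gdf7, differed by -0.30 to 0.31, also with adjusted p of 0.961, and of these Lrp2 and Gsc were not above background on any array.

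Markers of neighbouring tissue and cells were read in the same mice. Hippocampal neuron markers were present throughout, with 9 of 10 above the 75th percentile of the negative controls on all arrays, and their mean deviation stayed between -0.13 and 0.15 in both groups. Wfs1 and Cpne4 differed by 0.25 and -0.16. Thalamus markers had a mean deviation of -1.36 in intact mouse 3 but 0.44 in impaired mouse 3, so that the plexus genes were low in 1 mouse with low and in 1 with high thalamus markers. All 12 had higher means in the impaired group, by a median of 0.32, led by Shox2 and Tcf7l2 with 0.79 (standard error 0.61) and 0.51 (standard error 0.48). That direction rested on intact mouse 3: without it 2 of the 12, Shox2 and Patj, were higher, the median was -0.063, and Shox2 and Tcf7l2 differed by 0.092 and -0.033. The log2 of their summed linear values ran from 13.07 to 13.72 in the impaired and from 11.79 to 13.79 in the intact group.

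Ependymal markers, of cells that line the ventricle next to the plexus, had lower means in the impaired group in 8 of 8 tested genes, by a median of -0.20. Their mean deviation was lowest in impaired mouse 3, at -0.37, and was -0.10 in intact mouse 3. The log2 of their summed values ran from 11.15 to 11.33 in the impaired and from 11.29 to 11.69 in the intact group. Of 11 on the array, 6 (Tmem212, Rarres2, Ak7, Spag17, Hydin and Rsph1) were below the 75th percentile of the negative controls on every array. Pltp, a phospholipid transfer protein, differed by -0.31 (standard error 0.095) and Ak7 by -0.35. With a mean of 10.90 Pltp was the brightest gene of this list and makes up most of its sum. Fibroblast markers were higher in 7 of 9, among them Slc22a6 (0.50) and Slc6a13 (0.32), which had the smallest p, with a summed level of 12.12 to 12.60 in the impaired and 12.06 to 12.34 in the intact group. Igf2, the brightest gene of the fibroblast list with a mean of 11.42, differed by -0.042 and weighs most in that sum. Border macrophage markers were higher in 5 of 6, from Mrc1 (0.42) to F13a1 (0.11), with Cbr2 (0.35) and Cd163 (0.26) having the smallest p, and with sums of 9.12 to 9.42 and 8.91 to 9.13. Lum and Col3a1 of the fibroblast list, and Mrc1, Cd163 and Lyve1 of the macrophage list, were below that percentile on every array. Plvap and Esm1 of fenestrated endothelium, the type found in the plexus, differed by 0.032 each, and Esm1 was below that percentile on every array. Cldn5 and Abcb1a of barrier endothelium differed by -0.22 and -0.12. Of 5 erythrocyte genes 1 was found on the array, Alas2, which differed by -0.41 (standard error 0.11). No marker gene named here that was tested passed (limma, adjusted p of 0.961 or more), and Rarres2, Spag17, Rsph1 and Col3a1 were too dim to be tested. The part of any of these cell types in the plexus pattern was not tested.

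**Figure D4:**
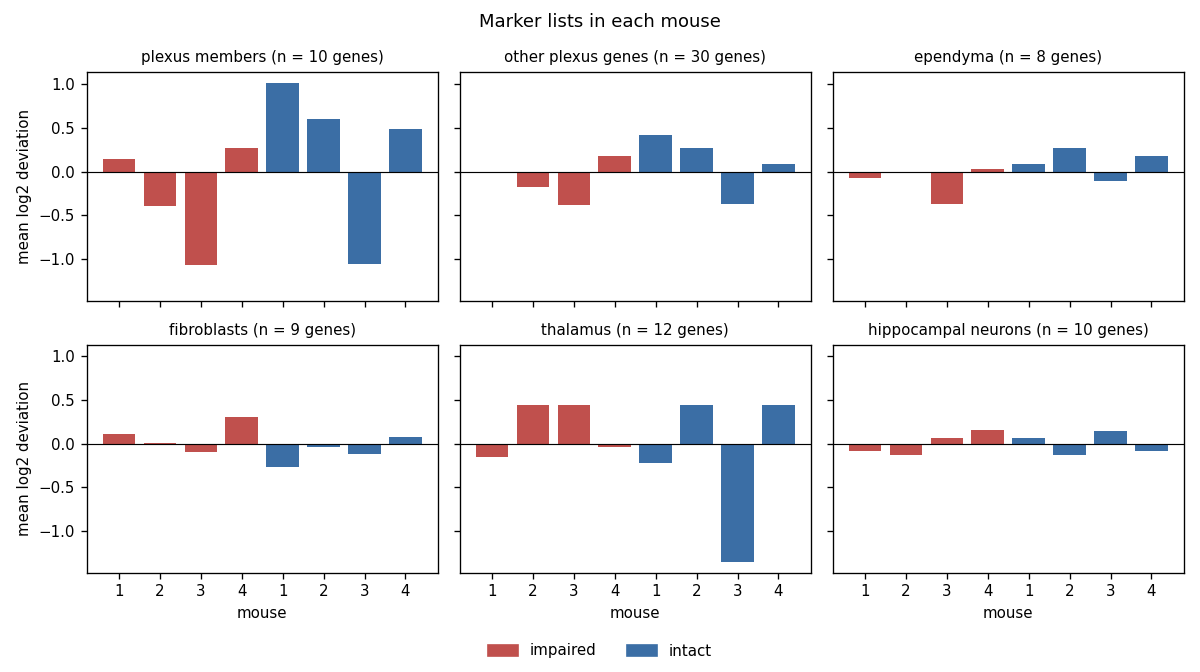
Mean log2 deviation of each list's tested genes from their own means (vertical axis) in each mouse (horizontal axis, impaired in red, intact in blue). The plexus lists fall in both mice numbered 3, to -1.07 and -1.06 for the 10 genes, while the thalamus list falls to -1.36 in intact mouse 3 alone and hippocampal neuron markers stay within -0.13 and 0.15.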

How the data were processed

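Total RNA (1 ng per mouse, per the labels' protocols) was amplified and labelled for 1-colour arrays. The authors deposited log2 values, which they had made with RMA, per the submitters' processing notes. RMA normalizes arrays together and compresses differences near background. Its software version, like the genome build, is not given in the sources used here. Gene names came from the array platform's table (19572 target probe sets with 1 symbol, 2634 not listed, unnamed here), and the brightest probe set stood for a gene. Of the 19505 genes, the dimmest 25% by mean were removed (floor 5.33), and the 14628 that stayed included all 10 plexus genes.

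Group differences came from limma 3.58.1 under R 4.3.3 (two-sided eBayes after lmFit), with p-values adjusted by Benjamini-Hochberg across every gene tested. The code was tested on simulated data. The 10 genes and all lists were chosen with earlier results of these data known. Genes named beside the 10 were up to 8 of the other plexus list and 2 of each further list with the smallest p, and the 10 genes outside both plexus lists nearest to the mean deviation pattern, without predicted genes, receptors of smell and small RNAs. The labels number mice 1 to 4 in each group. The labels do not say that equal numbers mark a shared litter or day. Alternatives were another normalization, filter, variance model, array weights, a replicate block and leaving out mice. Scan dates and the sex of the mice were not used here.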

Additional observations from a re-analysis of the deposited data

Results flagged for a closer look

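Among 61 named genes and the mean deviation of the 10, in each group of 4, 12 values stood apart from the other 3 by Dixon's test at 95%, which chance gives in about 1 of 20 groups. The 3 values among the 10 plexus genes followed here were all in intact mouse 3, where Ttr was 10.56 (others 13.28 to 13.69), Otx2 was 5.55 (others 7.54 to 7.77) and Aqp1 was 6.30 (others 6.94 to 7.02). In the same mouse Cfap126 was 6.50 and Ceacam1 5.99. In impaired mouse 3 Slc39a4 was 5.57 and F8 was 6.27. The others were Abca4 at 6.47 and Gdf7 at 7.16 in intact mouse 2, Lrp2 at 5.41 and Wfs1 at 9.17 in intact mouse 4, and Tyms at 6.83 in intact mouse 1. The mean deviation of the 10 genes was not among them in either group.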

How the results depend on the processing

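None of the 10 genes passed an adjusted p of 0.05 in any setting, with a smallest adjusted p of 0.735, for Kl without impaired mouse 4. All 10 had a lower mean in every setting that kept all mice and tested them, and leaving out 1 mouse gave 8 to 10 of 10, with a median difference from -0.93 to -0.29. With the lowest 50% of genes left out, 6 of the 10 were tested and all 6 were lower. Over all genes 0 passed, except 1, Scg5, with an intensity trend and robust prior in limma. Quantile normalization again gave a median of -0.54 and array weights -0.63. Each of the 10 genes has 1 probe set, so that averaging probe sets changed nothing for them. With the replicate number as a block, the median was -0.59. In limma 5 of the 10 genes then had an unadjusted p under 0.05, as did 633 of the 14628 genes tested. After adjustment 0 of the 10 passed (limma, smallest adjusted p = 0.986). Same-numbered mice did not deviate together over all genes, with correlations of deviations from 0.033 down to -0.10, so that the numbers are not taken to pair the mice. Steap1 and Kcne2 were below the 75th percentile of the negative controls on 6 of 8 arrays, F5 on 3, Folr1 on 2 and Otx2 and Aqp1 on 1 each, which limits what their low values can show.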
